A study of Homo sapiens with 6 samples.

Results

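The cytosolic chaperone system outside the HSP70 and J-domain families was examined through 10 genes in HK-2 cells treated with TEPP-46 in high glucose (HG) medium. The genes were the transcription factors *HSF1* and *HSF2*, the HSP90 genes *HSP90AA1* and *HSP90AB1*, the HSP110 gene *HSPH1*, the small heat shock protein (HSP) genes *HSPB1* and *HSPB8*, and the cochaperone genes *BAG3*, *STIP1*, and *AHSA1*. They were listed by name and matched by Ensembl identifier. All 10 were found among the 29483 genes of the deposited table and passed the filter on low values, which left 13599 genes for testing.

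HK-2 is an immortalized human cell line derived from the renal proximal tubule. The control group consisted of 3 replicates exposed to HG medium with 25 mM glucose over 7 days. They stayed in HG medium without TEPP-46 for 1 more day. The case group consisted of 3 replicates with the same exposure. These received TEPP-46, an activator of the enzyme PKM2, at 10 μM during the 1 day after the 7 days, still in HG medium. High glucose was therefore shared by both groups, and no normal-glucose group was compared here. Levels are given as FPKM, the number of reads of a gene corrected for its length and for the library total. The order of genes by level therefore depends on the lengths used. These were recovered as 5248 bases for *HSP90AA1*, 2980 for *HSP90AB1*, 8390 for *HSPH1*, and 2702 for *HSF2*. The study describes the replicates as independent and separately treated, but whether each had its own culture throughout the HG exposure is not stated, and P-values measure the spread between these libraries.

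Heat shock factors are transcription factors that bind heat shock elements, repeats of the unit GAA in alternating orientation, and *HSF1* is the main one of the heat shock response. HSP90 is an abundant ATP-dependent chaperone that matures kinases and steroid receptors with the help of cochaperones, and together with HSP70 it is known to hold HSF1 inactive in unstressed cells. Small HSPs bind unfolding proteins without ATP, and BAG and HSP110 proteins release nucleotide from HSP70.

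The heat shock elements that can be read in the promoters are shown first, since they are the sequence by which these genes are tied to HSF1. RefSeq promoters on GRCh38.p14, from 250 bases before to 50 bases after a transcription start, were available for 9 of the 10 genes, *HSF1* being the exception. They were searched on both strands for 3 units (GAANNTTCNNGAA or TTCNNGAANNTTC) and for 2 units (GAANNTTC or TTCNNGAA, which also lie inside every match of 3 units). Matches of 3 units were found in *HSP90AA1* and *HSP90AB1*, and matches of at least 2 units in 5 of the 9 genes, counting any promoter of a gene. Among all 27305 genes with a promoter of this length, 0.608% held 3 units and 16.2% at least 2 in any of them, and among the 35116 single promoters the shares were 0.49% and 13.5%. The windows around the longest match upstream of the start are given 5′ to 3′ on the strand of the gene, with the matched letters in capitals.
HSP90AA1: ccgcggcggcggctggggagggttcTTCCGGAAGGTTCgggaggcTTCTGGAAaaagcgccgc
HSP90AB1: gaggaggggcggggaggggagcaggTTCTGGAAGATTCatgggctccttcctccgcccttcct
HSPB1: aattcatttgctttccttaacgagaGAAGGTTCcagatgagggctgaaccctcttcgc
HSPB8: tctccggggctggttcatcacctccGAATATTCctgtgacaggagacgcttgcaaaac

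These windows lie at chr14:102087095-102087157 on the minus strand for *HSP90AA1*, and on the plus strand at chr6:44247753-44247815 for *HSP90AB1*, chr7:76302466-76302523 for *HSPB1*, and chr12:119178818-119178875 for *HSPB8*. The match of *HSP90AA1* covers bases 88 to 76 before the start of the promoter shown, and a separate match of 2 units follows it in the window. The same promoter of *HSP90AB1* holds a further match of 3 units nearer to the start, at -112 to -100, outside the window shown. In *STIP1* the single match of 2 units lies after the start and is not shown. *HSPB8* also holds a match of 2 units after its start that is not shown. The other promoters of *HSP90AA1*, *HSP90AB1*, and *STIP1* held no match. No match was found in the windows of *HSF2*, *HSPH1*, *BAG3*, or *AHSA1*, which says only that these letters are absent from those bases. A match is a description of the sequence and does not show that a factor was bound there.

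Control replicates 1, 2, and 3 had library totals of 18634891, 17924033, and 17378710 reads. The totals of case replicates 1, 2, and 3 were 16711934, 16047243, and 15363254 reads. On the first principal component of all tested genes, the control libraries lay at -22.9, -27.8, and -23.7 and the case libraries at 30.5, 9.54, and 34.4, so case replicate 2 was the case library nearest to the control group on this component. In the recovered reads, chi-square per degree of freedom was 27.9 between case replicates 1 and 2, 18.2 between 1 and 3, and 12.4 between 2 and 3, which made case replicate 1 the least like the others by this measure, against 3.16 to 5.84 between control replicates. The median gene had an SD on the log2 scale of 0.09 among the control libraries and 0.19 among the case libraries, that is, the case libraries differed more among themselves. These totals were recovered from the FPKM values and are confounded with the groups, because each case library had a smaller total than each control library. They are not the sequencing depth: in the clean and mapped reads that the study lists, the groups overlapped.

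The defining markers of the proximal tubule were at or near 0 in these libraries, whatever the origin of the line. All 8 were in the table and none reached the filter, and the most abundant, *MME*, averaged 0.380 FPKM in the control libraries and 0.328 FPKM in the case libraries. *LRP2*, which encodes the endocytic receptor megalin, was listed at 0 in 5 of the 6 libraries. The summed FPKM of the 8 markers was 0.819, 0.845, and 0.881 in the control libraries and 0.568, 0.601, and 0.721 in the case libraries. The epithelial keratins *KRT8*, *KRT18*, and *KRT19* were abundant, with means of 344, 193, and 352 FPKM in the control libraries and 271, 187, and 340 FPKM in the case libraries, and none of them passed the test. Markers of endothelium and fibroblasts stayed at or below 0.35 FPKM in every library. Of the leukocyte markers only *CD14* was analysed here, and its means of 0.806 FPKM in the control libraries and 0.264 FPKM in the case libraries rested on 7 to 31 reads per library (log2 fold change = -1.24, adjusted p = 0.0384 by limma). The part of these markers in the results was not tested. In libraries of whole cultures, fewer cells expressing a gene and less of its RNA per cell cannot be told apart.

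The 10 genes spanned more than 3 orders of magnitude in level. In the control group the order from the highest was *HSP90AB1*, *HSP90AA1*, *HSPB1*, *STIP1*, *AHSA1*, *BAG3*, *HSF1*, *HSPH1*, *HSF2*, and *HSPB8*. The ranges of *HSPH1* and *HSF2*, which are neighbours in this order, overlapped, and every other pair of neighbours was separated. In the case group *HSF2* stood above *HSPH1*, again with overlapping ranges, and those of *BAG3* and *HSF1* overlapped as well. The plot of levels by library shows the range between genes beside the smaller differences between groups, with *HSPH1* and *HSF2* close to each other.

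**Figure D1:**
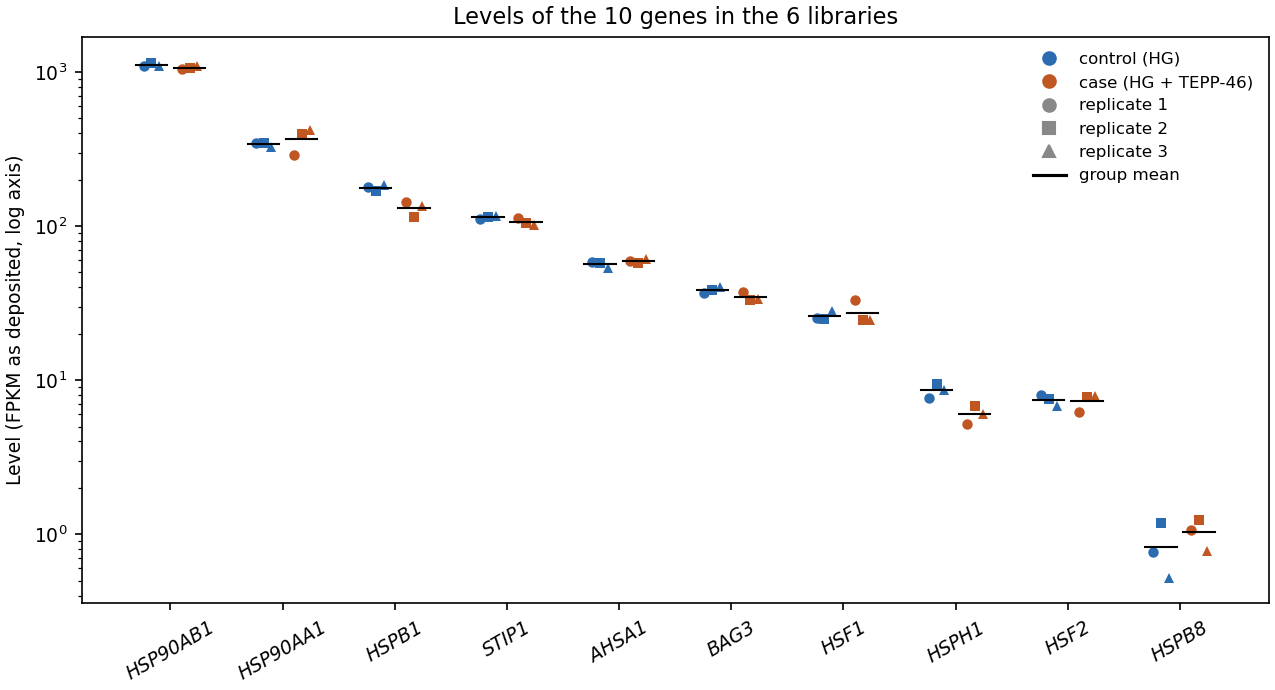
Level of each of the 10 genes (x axis, ordered by the control mean) in FPKM as deposited (y axis, logarithmic) in the 3 control libraries (blue) and the 3 case libraries (orange), with the replicate given by the symbol and the group mean by a line. *HSP90AB1* lies between 1039 and 1151 FPKM and *HSPB8* between 0.523 and 1.24 FPKM, and on this scale the groups do not overlap for *HSP90AB1*, *HSPB1*, and *HSPH1*. The share of all genes without overlap was not determined on this scale. After scaling between libraries it was 39.9% of all tested genes, and there the groups overlapped for *HSP90AB1*.

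Of the 10 genes, 1 was a DE gene at an adjusted p of at most 0.05, which is 10.0%, and among all 13599 tested genes 13.2% were DE genes. The DE gene was *HSPH1*, which was downregulated, as were 5.84% of all tested genes. A share this close to the background is not a result about the 10 genes as a group. The median of their log2 fold changes was 0.03, and that of all tested genes was 0.00 after rounding. After scaling between libraries, the groups did not overlap in 2 of the 10 genes, *HSPH1* and *HSPB1*, and 39.9% of all tested genes showed no overlap on that scale. In the test on whole reads recovered from the FPKM values (limma voom), the same 2 genes were DE genes and were lower in the case group, and that test called 20.4% of all tested genes in either direction and 10.8% as lower. With other scalings, 4 of the 10 genes passed by limma with quantile normalization and 4 on the TPM scale, all of them lower in the case group, where 6.58% and 17.5% of all tested genes were lower in those fits. The median log2 fold change of all tested genes stayed at 0.00 with quantile normalization. The TPM scale moved it to -0.20 and unscaled FPKM moved it to -0.08, so values on these scales are to be read against those medians.

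*HSPH1* (ENSG00000120694, chr13:31134973-31162388, minus strand) encodes HSP110, a nucleotide exchange factor of HSP70 that also helps to dissolve protein aggregates. Its level was 7.67, 9.45, and 8.68 FPKM in control replicates 1 to 3 and 5.23, 6.77, and 6.0 FPKM in case replicates 1 to 3. Every case library was below every control library, the nearest values being 6.77 FPKM in case replicate 2 and 7.67 FPKM in control replicate 1. The mean fell from 8.60 ± 0.893 to 6.0 ± 0.769 FPKM (SD, n = 3), which on the scaled log2 values was a fold change of -0.44 with a standard error of 0.11 (95% confidence interval -0.69 to -0.18, adjusted p = 0.041 by limma, 734 to 1421 reads per library). The call sat just inside the threshold, at rank 1408 of the p-values of all tested genes. It was lost without any one of the control replicates (adjusted p = 0.0854, 0.161, and 0.129 by limma without replicates 1, 2, and 3) and without case replicate 1 or 3 (adjusted p = 0.0585 and 0.117), as well as with no filter on low values (0.0921) and without the intensity trend (0.0709). The direction was the same in all 17 alternatives.

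*HSPB1* (ENSG00000106211, chr7:76302673-76304295, plus strand) encodes HSP27, the small HSP that binds unfolding proteins and actin. The control libraries held 178, 168, and 184 FPKM and the case libraries 144, 115, and 134 FPKM, with no overlap between the groups. The means were 176 ± 8.07 and 131 ± 14.5 FPKM (SD, n = 3), and the log2 fold change was -0.36 (standard error 0.11, 95% confidence interval -0.61 to -0.10). With an adjusted p of 0.0691 by limma, *HSPB1* was not a DE gene in that fit. By limma voom on recovered reads it was, with an adjusted p of 0.0344, and 3026 to 5410 reads per library lay behind these values. Case replicate 2 was the lowest, and without case replicate 1, the highest of the case libraries, the adjusted p was 0.0247 by limma. Without case replicate 2 the log2 fold change shrank to -0.24 (adjusted p = 0.0629). Over the 17 alternatives the adjusted p of *HSPB1* ran from 0.00462 with quantile normalization, where its log2 fold change was -0.56, to 0.211 with no filter on low values, and it passed in 5 of them, always with the same direction.

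*HSPB8* (ENSG00000152137), whose product works with BAG3 in the selective removal of misfolded proteins, was the least abundant of the 10 genes. It was measured at 0.769, 1.19, and 0.523 FPKM in the control libraries and at 1.07, 1.24, and 0.774 FPKM in the case libraries, from 26 to 61 reads. The groups overlapped. A log2 fold change of 0.39 was accompanied by a 95% confidence interval from -0.31 to 1.09 (adjusted p = 0.404 by limma), so at this depth a rise to more than double and a moderate fall are both within the error. The value was 0.66 without control replicate 2, 0.13 without control replicate 3, and 0.19 with a pseudocount of 1. Of the 10 small HSP genes listed, 5 were analysed here and only these 2 reached the filter. *CRYAB*, which encodes αB-crystallin, was among those not analysed here.

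*HSF1* (ENSG00000185122, chromosome 8 from 144291591 to 144314720) is the factor that drives heat-inducible transcription. It stood at 25.4, 25.0, and 28.2 FPKM in the control libraries and at 33.0, 24.6, and 24.4 FPKM in the case libraries. Only case replicate 1 was above the control range, and the other two case libraries were slightly below it. The means of 26.2 ± 1.77 and 27.4 ± 4.91 FPKM (SD, n = 3) did not differ beyond this spread (log2 fold change = 0.13, standard error 0.14, 95% confidence interval -0.20 to 0.45, adjusted p = 0.571 by limma), and on the TPM scale or without case replicate 1 the sign turned (-0.07 and -0.04). An RNA level gives no information on the activity of the factor, which is known to be set mainly on the protein.

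*HSF2* (ENSG00000025156, chr6:122399551-122433119) encodes a second factor that can form trimers with HSF1. Levels of 8.06, 7.50, and 6.81 FPKM in the control libraries and of 6.20, 7.77, and 7.95 FPKM in the case libraries overlapped, and here case replicate 1 was the lowest. The log2 fold change was 0.04 (95% confidence interval -0.21 to 0.30, adjusted p = 0.823 by limma), and -0.16 on the TPM scale. The ratio of the *HSF2* level to the *HSF1* level was 0.317, 0.3, and 0.241 in the control libraries and 0.188, 0.316, and 0.325 in the case libraries. It was 0.286 ± 0.0398 against 0.276 ± 0.0768 (SD, n = 3) and did not differ beyond the spread (p = 0.9, exact two-sided permutation test, for which 3 against 3 libraries cannot give less than 0.1).

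*HSP90AB1* (ENSG00000096384, chr6:44246166-44253888), the constitutive HSP90β, was the most abundant of the 10 genes. Its FPKM as deposited were 1091, 1151, and 1098 in the control libraries and 1039, 1068, and 1089 in the case libraries, so every case value was below every control value. The case libraries also had larger FPKM sums and smaller scaling factors, and after scaling between libraries the groups overlapped. The log2 fold change was 0.01 with a narrow 95% confidence interval from -0.16 to 0.19 (adjusted p = 0.921 by limma, 49871 to 61503 reads per library). The sign of this small difference therefore depended on the scaling: with quantile normalization it was -0.23 (adjusted p = 0.04 by limma).

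*HSP90AA1* (ENSG00000080824, chr14:102080742-102139699, minus strand), the stress-inducible HSP90α, was measured at 347, 345, and 324 FPKM in the control libraries and at 291, 394, and 418 FPKM in the case libraries. Case replicate 1 was below all control libraries and case replicates 2 and 3 were above all of them. The means of 339 ± 12.5 and 367 ± 67.6 FPKM (SD, n = 3) gave a log2 fold change of 0.18 (95% confidence interval -0.10 to 0.46, adjusted p = 0.338 by limma). Without case replicate 1 it was 0.32 and passed the threshold (adjusted p = 0.0327 by limma), without case replicate 3 it was 0.08, and with quantile normalization and TPM it was -0.08 and -0.02. These values rested on 25480 to 33897 reads per library.

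Together, the HSP90 genes held 1438, 1496, and 1422 FPKM in the control libraries and 1329, 1462, and 1507 FPKM in the case libraries (1452 ± 39.1 and 1433 ± 92.3 FPKM, SD, n = 3, p = 0.9, exact two-sided permutation test). The difference of -19.5 FPKM turned to 56.9 after median-of-ratios scaling and to 32.3 without case replicate 1. In FPKM, *HSP90AB1* was between 2.61 and 3.58 times as high as *HSP90AA1* in each library, a ratio that depends on the gene lengths used. The share of *HSP90AA1* in the sum was 24.1%, 23.1%, and 22.8% in the control libraries and 21.9%, 27.0%, and 27.7% in the case libraries. Although the case libraries lay on both sides of the control range, the difference of 2.19 percentage points did not exceed their spread (p = 0.4, exact two-sided permutation test), and leaving out case replicate 1 or 3 gave 4.02 or 1.09 percentage points. The remaining HSP90 paralogs were *HSP90B1*, the GRP94 of the endoplasmic reticulum, with a log2 fold change of 0.06 (adjusted p = 0.783 by limma), and *TRAP1*, the mitochondrial HSP90, with -0.23 (adjusted p = 0.318). None of the 4 paralogs was a DE gene by limma in this scaling or by voom, where 13.2% and 20.4% of all tested genes were. None had an unadjusted p below 0.05, where 4495 of the 13599 tested genes did by limma. *TRAP1* passed by limma without case replicate 1 (-0.41, adjusted p = 0.0198) and on the TPM scale (-0.43, adjusted p = 0.0498).

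*STIP1* (ENSG00000168439, chr11:64185272-64204543) encodes HOP, the adaptor that hands clients from HSP70 to HSP90. It was 111, 115, and 117 FPKM in the control libraries and 112, 105, and 102 FPKM in the case libraries, which overlapped. The log2 fold change of -0.02 had a 95% confidence interval from -0.21 to 0.16 (adjusted p = 0.854 by limma), whereas with quantile normalization and TPM *STIP1* passed at -0.21 and -0.22 (adjusted p = 0.0428 and 0.042). *AHSA1* (ENSG00000100591, chr14:77457870-77469472), the activator of the HSP90 ATPase, was 58.2, 57.5, and 53.6 FPKM in the control libraries and 59.5, 57.2, and 61.5 FPKM in the case libraries. It had a log2 fold change of 0.15 (95% confidence interval -0.03 to 0.33, adjusted p = 0.223 by limma), and the groups overlapped through case replicate 2. On the TPM scale the value of *AHSA1* was -0.05.

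*BAG3* (ENSG00000151929, chr10:119651380-119677819) encodes the stress-inducible BAG protein that links HSP70 and HSPB8 to autophagy. Its level was 36.6, 38.3, and 40.2 FPKM in the control libraries and 37.4, 33.0, and 33.7 FPKM in the case libraries, with case replicate 1 inside the control range and the others below it. The scaled difference was -0.07 on the log2 scale (95% confidence interval -0.28 to 0.14, adjusted p = 0.633 by limma), and *BAG3* passed on the TPM scale at -0.27 (adjusted p = 0.0406). After median-of-ratios scaling no gene of the BAG family was a DE gene: 0 of the 6 passed by limma, 0 by voom, and 0 had an unadjusted p below 0.05, where limma called 13.2% of all tested genes, and their log2 fold changes ran from -0.19 to 0.25. With quantile normalization 1 of the 6 was lower in the case group (6.58% of all tested genes), and on the TPM scale 3 were (17.5% of all tested genes).

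In 5 of the 10 genes (*HSF1*, *HSF2*, *HSP90AA1*, *BAG3*, and *STIP1*), case replicate 1 lay on the other side of the control mean from case replicates 2 and 3. The same was seen in 17.9% of all tested genes. In the study's counts, the share of mapped reads in introns was lowest in case replicate 1 and highest in case replicates 2 and 3. Its part in this split was not tested. The plot of each library relative to the control mean shows this split next to *HSPH1* and *HSPB1*, in which all case libraries lay below the controls.

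**Figure D2:**
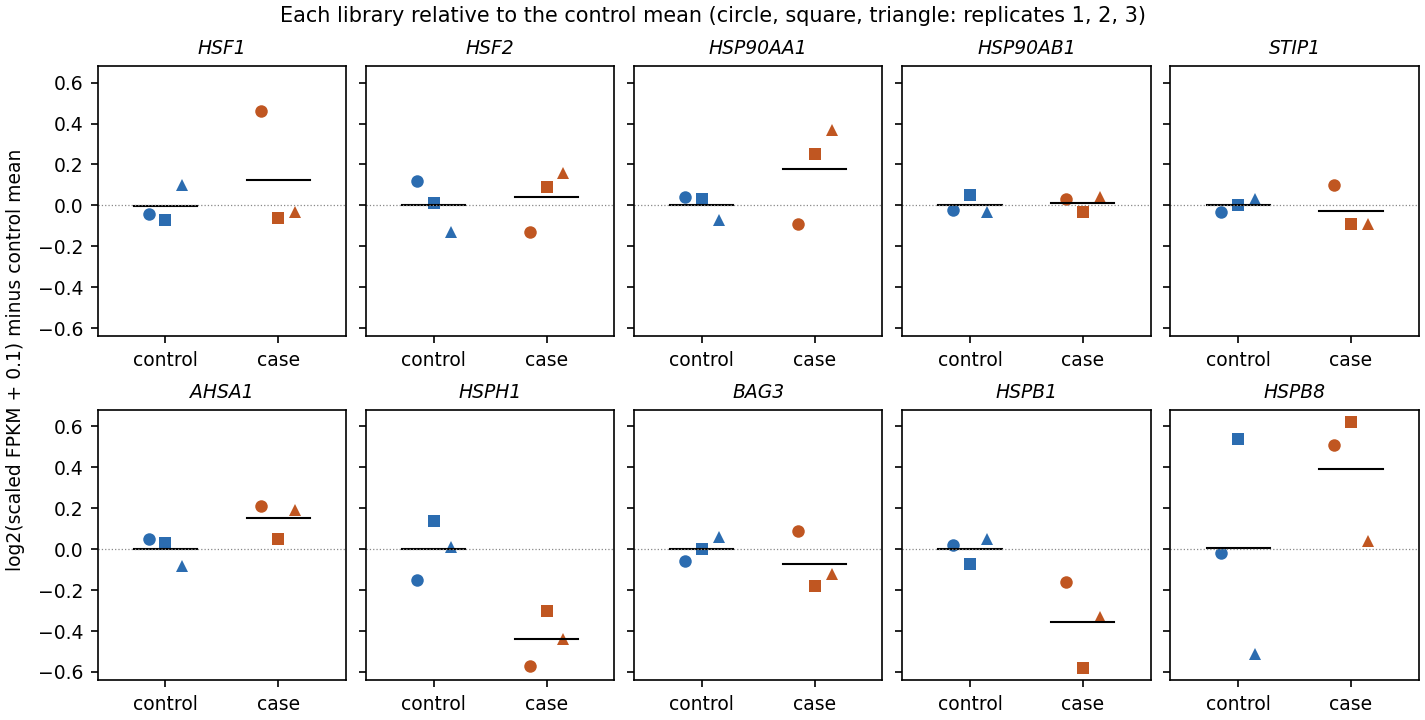
Scaled log2 level of each library minus the mean of the control libraries (y axis) for the 10 genes, with circles, squares, and triangles for replicates 1, 2, and 3 and a line at the group mean. The case libraries of *HSPH1* (-0.57, -0.30, and -0.44) and *HSPB1* (-0.16, -0.58, and -0.33) all lie below the controls, whereas those of *HSP90AA1* (-0.09, 0.25, and 0.37) and *HSF1* (0.46, -0.06, and -0.03) lie on both sides of 0.

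The expression pattern over the 6 libraries was compared with that of 6646 genes of at least 5 FPKM by the root mean square difference of centred log2 values. The genes most like *HSP90AA1* were *INTS13*, *ECHDC1*, and *PROS1*, with differences of 0.0203, 0.0266, and 0.0405. Those most like *HSF1* were *CCDC9*, *SNRNP25*, and *TMEM250* (0.0339, 0.0373, and 0.0375), and those most like *HSPB1* were *IFITM3*, *LZTS2*, and *ZNF385A* (0.042, 0.0489, and 0.0492). All of these differences were small beside the ranges of the genes themselves, 0.463 for *HSP90AA1*, 0.532 for *HSF1*, and 0.635 for *HSPB1*. No heat shock gene was among them.

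The chaperone network was covered by 8 lists with 81 genes in all, which set these genes beside its other members, and 70 of the 81 were tested. Upregulated DE genes numbered 8 (7.34% of all tested genes were upregulated) and downregulated DE genes 5 (5.84% of all tested genes), and the median log2 fold change was 0.10. In the list of heat-inducible HSF1 targets, which also held the mainly constitutive *HSPA8* and *HSP90AB1*, 24 genes were tested, and of these 2 were upregulated and 4 were downregulated, with a median of 0.09, where 7.34% and 5.84% of all tested genes were. By voom the split was 2 and 6, and with quantile normalization and on the TPM scale it was 1 and 8 with a median of -0.11, so the sign of the median depended on the scaling. The split was 0 and 3 without control replicate 1 or case replicate 3, and 0 and 2 without control replicate 2 or 3. Without case replicate 1 it was 5 and 4. For all tested genes the split was 76 and 29 without control replicate 1 and 121 and 71 without case replicate 3. It was 55 and 14 without control replicate 2, 68 and 19 without control replicate 3, and 1221 and 1075 without case replicate 1. Among all tested genes, 10.8% were downregulated by voom, 6.58% with quantile normalization, and 17.5% on the TPM scale, where the median of all genes was 0.00, 0.00, and -0.20. The 4 downregulated by limma after median-of-ratios scaling were *HSPA8*, *HSPA1B*, *HSPA1A*, and *HSPH1*, that is, 3 HSP70 genes and an exchange factor of HSP70. *HSPA8*, the constitutive HSC70, fell from 275, 279, and 268 FPKM to 116, 115, and 124 FPKM (log2 fold change = -1.13 with a standard error of 0.07, adjusted p = 0.00152 by limma). *HSPA1B* and *HSPA1A* fell by 1.02 and 0.80 on the log2 scale (adjusted p = 0.00217 and 0.00909), and reads of these near-identical genes may be shared. Without control replicate 2 or 3, *HSPA1A* had an adjusted p of 0.0562 or 0.0537 by limma. *DNAJB1*, the J-domain partner of HSP70 and a classical heat-inducible gene, had a log2 fold change of -0.07 (adjusted p = 0.591), and -0.27 on the TPM scale (adjusted p = 0.0281).

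By limma after median-of-ratios scaling, the upregulated genes of that list were *ZFAND2A* and *CACYBP*, a cochaperone. *ZFAND2A* encodes a stress-inducible zinc finger protein of the proteasome. *ZFAND2A* rose from 11.4, 10.9, and 9.74 FPKM to 14.4, 13.6, and 16.6 FPKM (log2 fold change = 0.55 with a standard error of 0.11, adjusted p = 0.0226 by limma). No case library of *ZFAND2A* overlapped with a control library, yet the call was lost without control replicate 1, 2, or 3 (adjusted p = 0.0758, 0.0951, and 0.0954 by limma) and without case replicate 3 (0.0769), as well as with no filter on low values (0.0579) and without the intensity trend (0.0518), and it held in 11 of 17 alternatives. The plot of differences between the groups sets the HSP70 genes, whose intervals lie entirely below -0.5, beside the 10 genes, most of whose intervals include 0.

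**Figure D3:**
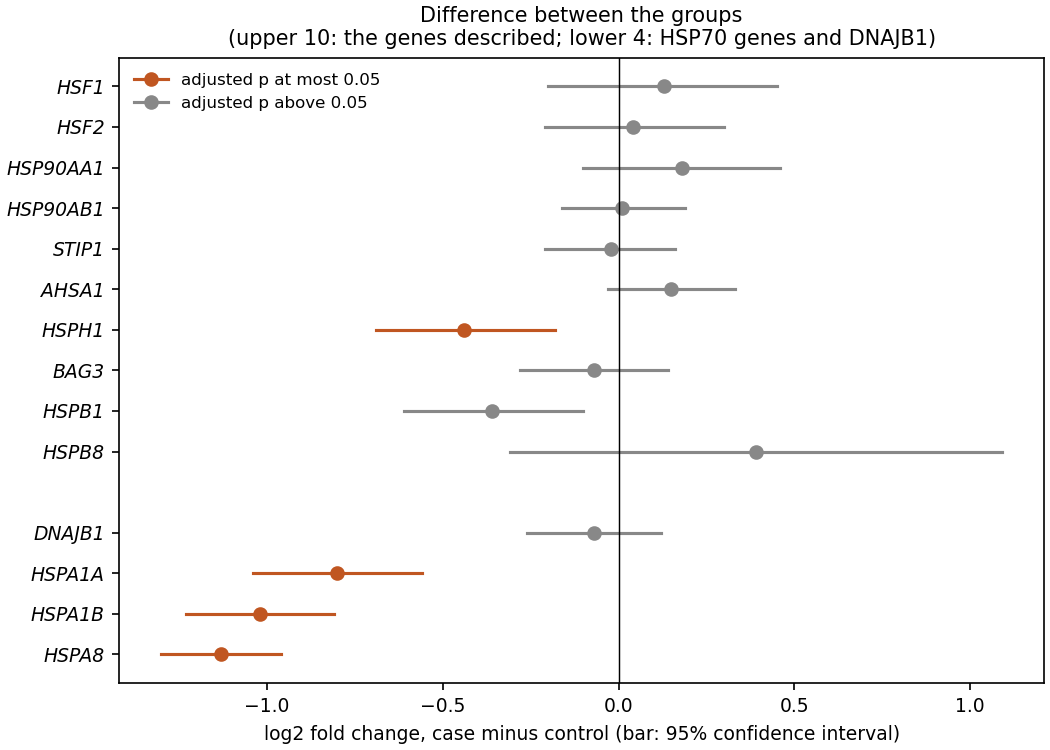
Log2 fold change of the case group against the control group (x axis) with its 95% confidence interval for the 10 genes (above) and for *DNAJB1* and 3 HSP70 genes (below), with DE genes in orange. *HSPH1* at -0.44 is the only orange point among the 10, and *HSPA8* lies lowest at -1.13.

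Of the 6 tested genes of the HSF family and its regulators, 1 was upregulated, where 7.34% of all tested genes were. This DE gene was *HSBP1L1*. Its product resembles HSBP1, a small protein that binds HSF1. It was 7.41, 7.25, and 7.78 FPKM in the control libraries and 9.60, 10.0, and 9.40 FPKM in the case libraries, without overlap (log2 fold change = 0.44 with a standard error of 0.08, adjusted p = 0.0175 by limma). The call was lost without control replicate 1, 2, or 3 (adjusted p = 0.0856, 0.0984, and 0.0758 by limma) and without case replicate 3 (0.0555), and on the TPM scale (0.0761). *HSBP1* itself had a log2 fold change of 0.21 (adjusted p = 0.12).

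Of the 26 tested HSP90 cochaperones, 1 was upregulated and 1 was downregulated, and the median log2 fold change was 0.00, where 7.34% of all tested genes were upregulated and 5.84% downregulated. With quantile normalization 0 were upregulated and 3 downregulated, and on the TPM scale 0 and 4, with a median of -0.20 that equals that of all tested genes on this scale. The shares of all tested genes that were downregulated in these fits were 6.58% and 17.5%. Without case replicate 1 the cochaperones split into 2 upregulated and 3 downregulated, where 1221 and 1075 of 13682 tested genes were. With no filter on low values or without the intensity trend, 0 cochaperones passed in either direction. *FKBP5*, the immunophilin FKBP51 that is known as a glucocorticoid-responsive gene, was downregulated from 9.87, 10.4, and 10.0 FPKM to 6.64, 8.48, and 7.18 FPKM (log2 fold change = -0.37 with a standard error of 0.09, adjusted p = 0.04 by limma). *CACYBP*, which binds the SIAH ubiquitin ligases and shares a domain with SGT1, was upregulated from 44, 43.9, and 46.2 FPKM to 49.5, 50.4, and 55.8 FPKM (0.29, standard error 0.08, adjusted p = 0.0459 by limma). The kinase loader *CDC37*, the p23 gene *PTGES3*, and the immunophilin gene *FKBP4* had log2 fold changes of 0.00, 0.15, and -0.00 with adjusted p of 0.995, 0.193, and 0.983. Neither call held without control replicate 1, 2, or 3 or without case replicate 3, where the adjusted p by limma was 0.127, 0.157, 0.125, and 0.119 for *FKBP5* and 0.173, 0.186, 0.133, and 0.125 for *CACYBP*. *CACYBP* also missed the threshold with unscaled FPKM (0.21, adjusted p = 0.0872), quantile normalization (0.17, adjusted p = 0.135), and TPM (0.09, adjusted p = 0.378), and it passed in 7 of 17 alternatives against 11 for *FKBP5*. *FKBP5* and its close homologue *FKBP4* therefore fell on different sides of the threshold, and the difference between them was not tested.

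In the list of HSP110 and nucleotide exchange factors, 1 of 6 genes was upregulated beside the downregulated *HSPH1*, where 7.34% and 5.84% of all tested genes were. This was *GRPEL2*, an exchange factor of mitochondrial HSP70, with 5.27, 5.19, and 5.73 FPKM in the control libraries and 5.81, 8.90, and 8.15 FPKM in the case libraries (log2 fold change = 0.54 with a standard error of 0.14, adjusted p = 0.0415 by limma). Case replicate 1 was hardly above the controls. The list had 0 DE genes when case replicate 3 or a single control replicate was left out. Those fits called 192 and 69 to 105 of all tested genes. Without case replicate 1 the list had 3 upregulated and 0 downregulated ones, where 1221 and 1075 of 13682 tested genes were. Without case replicate 2 the list had 2 and 2, where 1813 and 1682 of 13575 tested genes were. The call of *GRPEL2* was lost without control replicate 1, 2, or 3 (adjusted p = 0.132, 0.148, and 0.105 by limma) and without case replicate 2 or 3 (0.0569 and 0.133). It was also lost with unscaled FPKM (0.47, adjusted p = 0.0821), TPM (0.35, adjusted p = 0.161), no filter on low values (0.0913), and without the intensity trend (0.0751). *GRPEL2* passed in 8 of 17 alternatives. By voom the list had 1 upregulated and 2 downregulated genes, where 1300 and 1468 of the 13599 tested genes were.

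The chaperonins are ring-shaped chaperones that fold actin, tubulin, and other proteins. They had 4 upregulated and no downregulated DE genes among 10, by limma and by voom. Of all tested genes, 7.34% were upregulated by limma and 1300 of 13599 by voom. By voom 20.4% were DE genes in either direction. With no filter on low values or without the intensity trend, 1 of the 10 passed. All 10 log2 fold changes were above 0, from 0.16 to 0.54 with a median of 0.23, but with quantile normalization 4 of them and on the TPM scale 5 of them were below 0. *CCT2* changed most, from 87.5, 90.7, and 83.4 FPKM to 114, 120.2, and 126 FPKM (log2 fold change = 0.54 with a standard error of 0.07, adjusted p = 0.0101 by limma). *CCT8*, *CCT4*, and *CCT5*, further subunits of the same cytosolic ring, were upregulated by 0.33, 0.28, and 0.28 on the log2 scale (adjusted p = 0.0428, 0.0471, and 0.04). With quantile normalization or TPM, *CCT2* was the DE gene that remained of the 4. Without any one of the control replicates none of the 10 chaperonin genes passed the test by limma, where the calls among all tested genes fell to between 69 and 105. Without case replicate 3 a single one, *CCT2*, passed, where 121 of 13593 tested genes were upregulated. Without case replicate 1 or 2 there were 6, where 1221 of 13682 and 1813 of 13575 tested genes were upregulated. The mitochondrial chaperonin genes *HSPD1* and *HSPE1* had log2 fold changes of 0.19 and 0.41 (adjusted p = 0.188 and 0.258), and *HSPD1* passed without case replicate 1 (0.27, adjusted p = 0.049 by limma), while *HSPE1* was at 0.17 without control replicate 2. *HSPE1* was measured at 1.70 ± 0.495 FPKM in the control group against 119 ± 5.15 FPKM for its partner *HSPD1* (SD, n = 3). It shares 10.5% of its exon bases with the readthrough gene *HSPE1-MOB4*, whose reads were not analysed here, and 7.41% with *HSPD1* on the opposite strand, which had a mean of 124 FPKM.

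**Figure D4:**
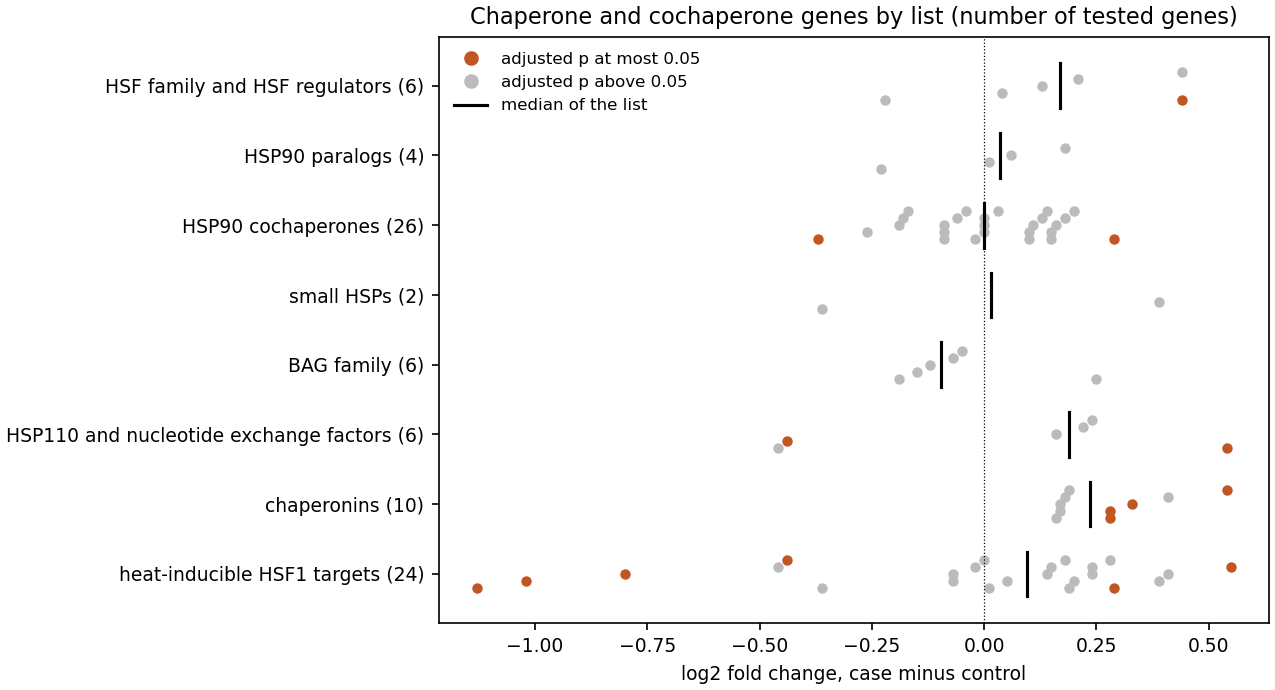
Log2 fold change of the case group against the control group (x axis) for the tested genes of each list (rows, with the number of tested genes), with DE genes in orange and the median of the list as a line; a gene of 2 lists is drawn in both. The chaperonins all lie above 0 in this scaling, with a median of 0.23 (4 and 5 of them lie below 0 with quantile normalization and TPM), and the HSP70 genes form the group below -0.75.

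Reads of other genes could enter some of these values. In the annotation of GRCh38, *HSF1*, *HSP90AA1*, and *AHSA1* share 2.58%, 3.87%, and 2.82% of their exon bases with the opposite-strand genes *DGAT1*, *WDR20*, and *VIPAS39*, whose mean levels were 2.99, 5.02, and 8.84 FPKM. *STIP1* shares 9.67% with an opposite-strand lncRNA that was not analysed here. Whether the counting used the strand is not given in the sources used here. The pseudogenes of *HSP90AA1*, *HSP90AB1*, and *HSPB1* in the table summed to 0.896%, 0.294%, and 0.384% of the levels of these genes.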

How the data were processed

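The values, deposited by the authors, are FPKM of 29483 genes in 6 libraries. The authors filtered reads, aligned them to GRCh38.p13 with HISAT2 (version 2.1.0), counted them with HTSeq (version 0.6.0), and scaled the counts to gene length and library reads. RNA selection, strandedness, and the annotation are not given in the sources used here.

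Median-of-ratios factors (0.944 to 1.04) were applied to the values, which were log2-transformed after adding 0.1 and tested in limma 3.58.1 (R 4.3.3) with an intensity trend and no covariate. Genes with a mean of at least 0.5 FPKM were tested, and P-values were adjusted by Benjamini-Hochberg over 13599 genes. Fold changes on this scale understate those of low genes. Library totals and whole reads were recovered from the deposited values (26103 of the 27922 genes above 0 from the values, 1818 with the exon length, 1 unresolved) and tested by limma voom as an alternative. The procedure was tested on simulated data. The libraries carried no stated molecular identifiers, so reads may not be independent molecules.

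The members and lists were chosen with earlier results of these data known. Named are the 10 genes, up to 4 DE genes with the largest change per list, *HSP90B1*, *TRAP1*, *CDC37*, *PTGES3*, *FKBP4*, *CRYAB*, *HSBP1*, *HSPD1*, *HSPE1*, *HSPA8*, and *DNAJB1*, and 3 genes most like *HSF1*, *HSP90AA1*, and *HSPB1*. Symbols and positions came from GENCODE 44 for 29063 genes. Further alternatives were pseudocounts of 1 and 0.01, no filter, at least 1 FPKM, FPKM unscaled, quantile normalization, TPM, no trend, robust estimation, the replicate block, and leaving out each replicate.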

Additional observations from a re-analysis of the deposited data

How the results depend on the processing

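All genes that passed the threshold numbered 1792 (998 higher and 794 lower), and 524 with no filter, 2764 on the TPM scale, 852 without the intensity trend, 2768 by voom, and 69 to 3495 without 1 replicate (105, 69, and 87 without control replicates 1, 2, and 3, 3495 without case replicate 2, and 192 without case replicate 3). Without further scaling 662 were higher and 1124 lower, and as TPM 381 were higher and 2383 lower, and with quantile normalization 873 and 895. The unscaled and TPM scales move the median of all genes by -0.08 and -0.20. Of the 10 genes, 1 passed, against 0 with no filter or without the trend, 2 with unscaled FPKM and by voom, 4 with quantile normalization and as TPM (all lower), and 0 to 2 without 1 replicate. Of the 70 tested chaperone genes 13 passed, 5 with no filter or without the trend, and 2 to 22 without 1 replicate. The split of 8 higher and 5 lower became 3 and 7 unscaled, 4 and 11 with quantile normalization, and 2 and 14 as TPM. *HSP90AB1* was at -0.23 with quantile normalization. *HSPH1* passed in 10 of its 17 alternatives, *HSPB1* in 5, *STIP1* in 2, and *BAG3*, *HSP90AA1*, and *HSP90AB1* in 1 each. The fits that left out a replicate held fewer samples, and the fit with no filter held more genes. The cause of the changes was not tested for any setting.

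Samples of the same replicate number deviated from their group means with correlations of 0.0634, 0.0999, and -0.0535, and not every sample correlated best with its own number, so the numbers do not pair them. With the replicate number as a block, 1610 of all genes, 1 of the 10 genes, and 9 of the chaperone genes passed, with 1 of the 10 chaperonins in place of 4. Depth limits *HSPB8*, which had 26 reads in its lowest library.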
